A study of Mus musculus with 8 samples.

Results

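Rab GTPases are small membrane-bound proteins that mark and route vesicles. The genes described here are the 55 of the 24060 rows of the deposited table whose symbol is Rab, a number and at most 1 letter, after leaving out Rab3a, Rab3b and Rab3c. Rab3d matches that rule and is therefore among the 55, although it belongs to the Rab3 family. The data come from the cortex of 4 mice about 80 postnatal days old, males and females, all with the genotype Aldh1l1-creERT2 hemizygous and Ribotag heterozygous. Aldh1l1 is an astrocyte gene whose regulatory sequence drives a tamoxifen-inducible Cre recombinase, and Ribotag is an allele of a ribosomal protein gene that gains a hemagglutinin (HA) tag in cells where Cre has acted. Each animal gave an HA IP library, from RNA on precipitated tagged ribosomes, and an input library, from the cleared lysate of the same homogenate. The comparison asked how Rab transcripts on astrocyte ribosomes relate to those of the whole cortex. A precipitation from mice without Cre was not analysed here.

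A Rab switches between a GDP-bound and a GTP-bound form. Exchange factors (GEFs) load GTP at the right membrane, GTPase-activating proteins (GAPs) switch the Rab off, and effectors such as tethers and motor adaptors bind the active form. A lipid tail, added by geranylgeranyl transferase with the help of an escort protein, holds the Rab on the membrane, and GDP dissociation inhibitors (GDIs) carry it back through the cytosol. In brain, Rabs are best known from neurons, where they move synaptic vesicles, dense-core granules and receptors, and astrocytes use the same machinery for endocytosis, lysosomes and delivery to the cell surface.

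The libraries held 33834388 to 45671386 fragments for HA IP and 35411626 to 53625125 for input. As a check of the labels, 8 of 8 astrocyte markers were higher in HA IP, summing to 10800 to 11400 FPKM (fragments relative to gene length and sequencing depth) against 796 to 853 FPKM in input. All 8 neuron markers were lower, at 65.7 to 85.5 FPKM in HA IP, against 1860 to 2110 FPKM in input, and none was at 0 in HA IP. Microglia markers summed to 8.06 to 11 FPKM in HA IP, against 123 to 130 FPKM in input, and oligodendrocyte markers to 14.5 to 16.1 and 164 to 231 FPKM, with all 8 of each list lower in HA IP. Of the endothelial markers 7 of 8 were lower (2.69 to 4.02 FPKM in HA IP, 18.6 to 27.0 in input), of the oligodendrocyte precursor markers 5 of 5 (2.67 to 5.45 and 21.1 to 26.1), and of the mural markers 4 of 6, with 1 higher (14.8 to 47.1 and 41.0 to 52.6). The part of these cells in the Rab values was not tested. Among the mural markers called lower, Kcnj8, Abcc9 and Acta2 passed the filter on low values through input alone. Most of the mural sum in HA IP was Vtn, at 7.84 to 38.8 FPKM, which did not pass (log2 fold change 0.15). In such bulk libraries, fewer cells of a type and less RNA per cell cannot be told apart.

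Fold changes below are HA IP over input on the log2(FPKM + 0.1) scale, with libraries scaled by the trimmed mean of M-values (TMM), and a gene is called at an adjusted p under 0.05 (limma with the animal as a block, Benjamini-Hochberg over 15605 genes). TMM scaling raised every log2 ratio by about 0.83 over the deposited values, so counts, and calls that differ, are also given on the deposited scale. Of the 55 Rab genes, 50 passed the filter on low values, 27 rose, 16 fell and 7 passed neither way. Rab20 and Rab39 each passed the filter through 1 group alone, and over the other 48 genes 26 rose and 15 fell (deposited scale: 13 higher, 30 lower). Over all genes tested 85.4% were called, 42.8% higher and 42.6% lower. On the deposited scale 14 Rab genes were higher and 31 lower, where 87.1% of all genes were called, 24.3% higher and 62.8% lower. The median log2 fold change of the 50 was 0.34 with TMM scaling and -0.48 without it, and that of all genes tested was 0.00 and -0.75. The group median lay between 0.29 and 0.42 in the 4 animals.

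Taking both scales together, 14 Rab genes were higher on both (24.3% of all genes), 16 were lower on both (42.6%), and 8 were called higher with TMM scaling and lower on the deposited scale (7.66%). The 14 include Rab20 and the 16 include Rab39, which each passed the filter through 1 group alone. All 43 called genes had the direction of their call in 4 of 4 animals. The 43 include Rab20 and Rab39, and the share over all called genes is not given here. The deposited values of HA IP and input did not overlap for 41 of the 50, Rab20 and Rab39 among them, as for 80.9% of all genes tested. At the ends of the range, 223 of the 15605 genes tested had a larger log2 fold change than Rab13, and 86 had a smaller one than Rab9b.

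**Figure D1:**
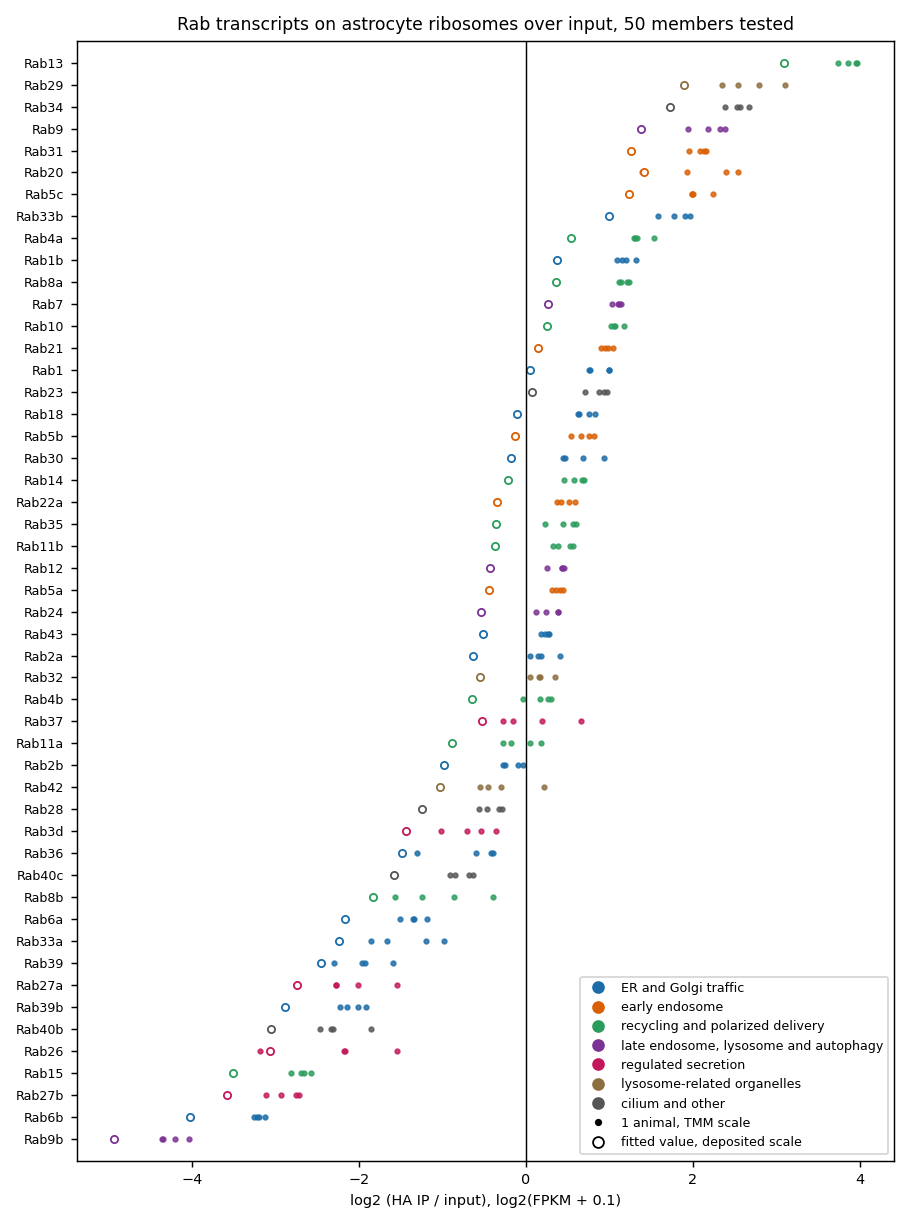
Log2 ratio of HA IP to input (x axis) for the 50 Rab genes tested (rows), coloured by role, with 1 filled point for each of 4 animals on the TMM scale and an open circle for the fitted value on the deposited scale. Rab13 lies highest at 3.88 and Rab9b lowest at -4.24, and the open circles sit about 0.83 to the left of the filled points except where the pseudocount is large beside the level.

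Values in each library follow in the order of animals 579, 580, 581 and 595, as deposited FPKM. The lengths behind the FPKM are the submitters' and are not known to be those of single transcripts, so levels of different genes are not compared. Counts by role stand beside 42.8% higher and 42.6% lower over all genes tested with TMM scaling. On the deposited scale these shares were 24.3% and 62.8%.

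Rabs of the endoplasmic reticulum and the Golgi apparatus divided. Of 13, leaving aside Rab39, 6 rose, 5 fell and 2 did not pass; on the deposited scale 2 were higher and 8 lower. Rab6b, the neuron-rich form of the Golgi Rab Rab6, had 15.8, 15, 15.8 and 16.3 FPKM in HA IP, against 253, 262, 255 and 260 FPKM in input. The groups stood far apart, with a log2 fold change of -3.20 (SE 0.06, adjusted p = 1.09e-08). Rab6a, the ubiquitous form, changed by -1.35 (SE 0.07) and averaged 23.2 ± 2.12 FPKM in HA IP, against 105 ± 5.39 FPKM in input (SD, n = 4 each). Rab39b, an X-linked gene tied to intellectual disability and early parkinsonism in people, had 1.98, 1.90, 2.55 and 2.83 FPKM in HA IP, against 17.4, 14.4, 17.1 and 22.1 FPKM in input. Every HA IP value was below every input value, and the log2 fold change was -2.08 (SE 0.08, adjusted p = 2.71e-07). Rab36 changed by -0.68 (SE 0.15).

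The Golgi and autophagy Rab Rab33b went the other way. It had 16.1, 16.4, 17.4 and 14.8 FPKM in HA IP, against 8.44, 7.85, 7.53 and 8.50 FPKM in input, for a log2 ratio of 1.81 (SE 0.08, adjusted p = 5.78e-07). Its lowest HA IP library stood above its highest input library. Rab1b, which acts between the endoplasmic reticulum and the Golgi, averaged 87.0 ± 3.75 FPKM in HA IP, against 67.5 ± 3.19 FPKM in input, and rose by 1.19 on the TMM scale and 0.37 on the deposited one. Its paralog Rab1 rose by 0.88, Rab18, a Rab of lipid droplets and the endoplasmic reticulum, by 0.71, and Rab30, a Golgi Rab, by 0.63. On the deposited scale these were 0.05, -0.11 and -0.18, and none of them passed there (adjusted p = 0.503, 0.148 and 0.0952). Rab2a, which acts on the Golgi and in autophagy, was called at 0.19 (adjusted p = 0.0448), was lost without animal 579, 580 or 581 (adjusted p = 0.102, 0.0913 and 0.126), and was lower on the deposited scale, at -0.63. Rab2b and Rab43 had -0.16 and 0.24 and did not pass with TMM scaling, and were called lower on the deposited scale at -0.98 and -0.52.

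Of the early endosome Rabs, Rab20 passed the filter through HA IP alone and Rab17 was not tested. The other 6 rose with TMM scaling, beside 42.8% of all genes tested. On the deposited scale 3 were higher, 2 lower and 1 did not pass, beside 24.3% higher and 62.8% lower. Rab5c, a form of the Rab that organises fusion and signalling of early endosomes, had 189, 192, 231 and 193 FPKM in HA IP, against 86.2, 87.9, 84.4 and 84.2 FPKM in input. The HA IP library of animal 581 stood above the other HA IP libraries, and all 4 were above input, with a log2 fold change of 2.05 (SE 0.07, adjusted p = 1.53e-07). Rab31, a close relative of Rab22a that acts between the Golgi and endosomes, had 67.1, 65.7, 64.4 and 54.4 FPKM in HA IP, against 27.7, 28.3, 24.7 and 24.1 FPKM in input. It rose by 2.08 (SE 0.06, adjusted p = 6.42e-08) with no overlap of the groups. Rab21, which recycles integrins, rose by 0.97, and by 0.14 on the deposited scale, where it still passed (adjusted p = 0.0332).

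The other members of the same sets did not stand above input in FPKM. Rab5a averaged 39.4 ± 3.46 FPKM in HA IP, against 53.5 ± 3.37 FPKM in input, so that it was called higher at 0.38 with TMM scaling and lower at -0.44 without it. Rab22a turned in the same way, with 0.48 on the TMM scale and -0.35 on the deposited one. Rab5b had 0.70 on the TMM scale and -0.13, with no call, on the deposited one. Rab20, a Rab of phagosomes, had 31, 28, 17 and 26 fragments in HA IP, against 9, 5, 7 and 8 fragments in input. Its log2 fold change of 2.06 (SE 0.21) is given as a description.

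Among Rabs of recycling and of delivery to the cell surface, 7 of 12 rose, 2 fell, 2 did not pass and 1 was not tested. Of all genes tested 42.8% were higher and 42.6% lower. On the deposited scale 4 were higher and 7 lower, beside 24.3% and 62.8%. Rab13, known from epithelial junctions and from traffic of the glucose transporter, had the largest rise of the 50. It had 12.9, 14, 11.6 and 12.9 FPKM in HA IP, against 1.37, 1.52, 1.26 and 1.54 FPKM in input, for a log2 ratio of 3.88 (SE 0.08, adjusted p = 2.01e-08), or 3.09 on the deposited scale. The 4 animals gave ratios from 3.74 to 3.97 and the groups were far apart.

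Rab4a, which returns cargo quickly from early endosomes to the surface, had 41.5, 46.8, 37.1 and 40.7 FPKM in HA IP, against 30, 29.4, 26.1 and 28.3 FPKM in input. It rose by 1.36 (SE 0.06, adjusted p = 6.99e-07), and its paralog Rab4b had 0.18 and did not pass (adjusted p = 0.0506). Without animal 595 Rab4b was called higher at 0.25 (adjusted p = 0.0155), and on the deposited scale it was called lower at -0.65. Rab10, a Rab of exocytosis that the kinase Lrrk2 phosphorylates, rose by 1.08, and by 0.25 on the deposited scale, although its FPKM overlapped between the groups. Rab14 rose by 0.60, Rab35 by 0.47 and Rab11b by 0.45 with TMM scaling, and were called lower, at -0.22, -0.36 and -0.37, on the deposited scale. Rab11a, the main Rab of the recycling endosome, had -0.06 (adjusted p = 0.528). It was called lower at -0.88 on the deposited scale, and at -0.28 (adjusted p = 0.0171) among genes with a mean of at least 1 FPKM.

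Rab15, which slows recycling from endosomes and is rich in nervous tissue, was the largest fall of this role. It had 10.6, 10, 10.2 and 9.15 FPKM in HA IP, against 115, 116, 115 and 112 FPKM in input. Values of each group lay within a narrow band, and the log2 fold change was -2.69 (SE 0.06, adjusted p = 2.51e-08).

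Of 5 Rabs of late endosomes, lysosomes and autophagy, 4 rose and 1 fell, beside 42.8% and 42.6% of all genes tested. On the deposited scale 2 were higher and 3 lower, beside 24.3% and 62.8%. Rab9, which returns mannose phosphate receptors from late endosomes to the Golgi, had 61.6, 76.5, 70.7 and 65.6 FPKM in HA IP, against 29.0, 27.7, 23.3 and 24.9 FPKM in input. It rose by 2.21 (SE 0.08, adjusted p = 2.25e-07). Its paralog Rab9b had 0.198, 0.168, 0.213 and 0.299 FPKM in HA IP, from 28 to 38 fragments a library, against 9.96, 8.92, 9.08 and 10.5 FPKM in input. The log2 fold change of Rab9b was -4.24 (SE 0.12, adjusted p = 5.02e-08), the largest fall of the 50, and it was -2.67 with a pseudocount of 1 FPKM. Rab7, the Rab of late endosomes and lysosomes, averaged 32.2 ± 0.237 FPKM in HA IP, against 26.7 ± 0.685 FPKM in input, and rose by 1.10 (SE 0.05), or 0.27 on the deposited scale. Rab12, which sends receptors to lysosomes, and Rab24, linked to autophagy, were higher at 0.40 and 0.29 with TMM scaling and lower at -0.43 and -0.54 without it.

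No Rab of regulated secretion rose: of 5, 4 fell and 1 did not pass, and all 5 were lower on the deposited scale, beside 42.6% and 62.8% of all genes tested that were lower on those scales. Rab27b, which docks secretory vesicles and exosome-releasing bodies, had 0.206, 0.204, 0.196 and 0.295 FPKM in HA IP, against 3.73, 3.28, 3.93 and 4.11 FPKM in input. Its HA IP values were all below its input values, at a log2 fold change of -2.88 (SE 0.13, adjusted p = 5.32e-07). Rab27a, the form known from melanosomes and lytic granules, had 0.258, 0.373, 0.240 and 0.369 FPKM in HA IP, against 2.79, 2.23, 2.51 and 2.97 FPKM in input. It changed by -2.02 (SE 0.16, adjusted p = 1.29e-05). With a pseudocount of 1 FPKM the changes of Rab27b and Rab27a were -1.56 and -1.07.

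Rab26, found on secretory granules and synaptic vesicles, had 2.21, 0.997, 2.23 and 3.19 FPKM in HA IP, against 18.7, 17.6, 17.8 and 16.3 FPKM in input. Input was even across animals and HA IP was not, with ratios from -3.19 to -1.54 and a log2 fold change of -2.27 (SE 0.23, adjusted p = 5.50e-05). Rab3d, the exocrine member of the Rab3 family, changed by -0.66 (SE 0.13). Rab37, a Rab of mast cell and islet secretion, had 0.11 and did not pass (adjusted p = 0.603).

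Of 5 Rabs of lysosome-related organelles and their kin, 1 rose, 2 did not pass and 2 were not tested, and on the deposited scale 1 was higher and 2 lower. The gene that rose was Rab29. It recruits the kinase Lrrk2 to membranes, and had 12.5, 11.4, 11.7 and 9.50 FPKM in HA IP, against 3.15, 3.96, 2.24 and 2.71 FPKM in input. All HA IP values stood above all input values, with a rise of 2.70 (SE 0.13, adjusted p = 7.21e-07). Rab32, a melanosome Rab, had 0.18 and Rab42 had -0.27, and neither passed with TMM scaling. On the deposited scale both were lower, at -0.55 and -1.03, and without animal 580 Rab42 was called at -0.43 (adjusted p = 0.0328).

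Of 6 genes with roles at the cilium, in ubiquitin ligases or elsewhere, 2 rose, 3 fell and 1 was not tested; on the deposited scale 1 was higher and 3 lower. Rab34, needed for an early step of cilium formation, had 10.1, 10.7, 15.7 and 9.73 FPKM in HA IP, against 3.41, 2.96, 4.47 and 2.81 FPKM in input. Animal 581 was highest in both groups, and its ratio lay with those of the other animals, between 2.39 and 2.67. The fitted rise was 2.54 (SE 0.08, adjusted p = 8.84e-08). Rab23, an inhibitor of hedgehog signalling, rose by 0.87 with TMM scaling and had 0.07, with no call, on the deposited scale. Rab28, a ciliary Rab mutated in cone-rod dystrophy, changed by -0.41.

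Rab40b and Rab40c carry a SOCS box, which joins a ubiquitin ligase. Rab40b had 1.83, 1.47, 1.65 and 2.73 FPKM in HA IP, against 17.2, 15.4, 14.7 and 17.5 FPKM in input, and Rab40c averaged 5.96 ± 0.924 FPKM in HA IP, against 17.9 ± 0.891 FPKM in input. Both fell, with log2 fold changes of -2.24 (SE 0.11) for Rab40b and -0.77 (SE 0.07) for Rab40c, and in no animal did an HA IP value reach an input value.

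**Figure D2:**
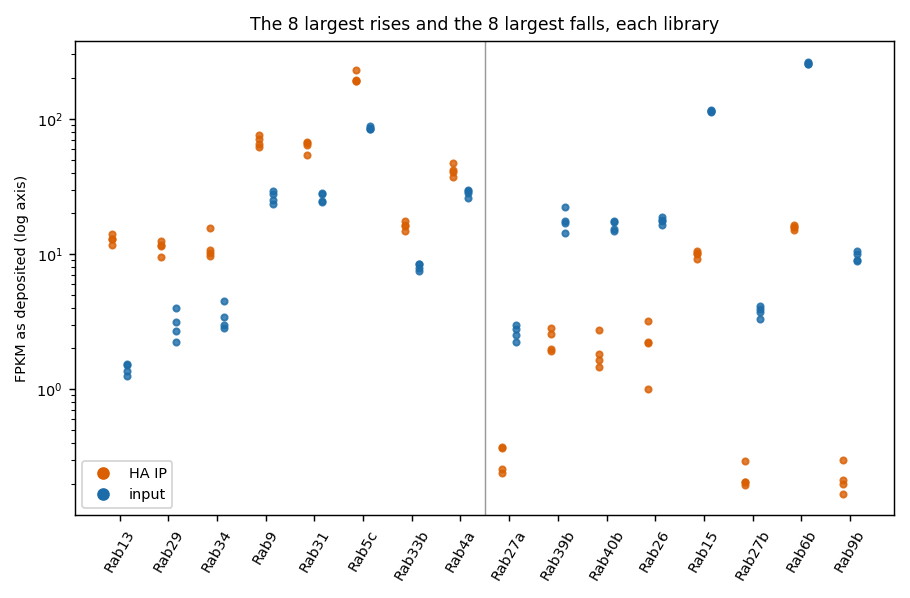
Deposited FPKM on a log axis in each of 4 HA IP and 4 input libraries for the 8 largest rises (left of the line) and the 8 largest falls (right of it) among called Rab genes with a mean of at least 1 FPKM. The 2 groups do not overlap for any of these 16 genes, which were picked by size of change in these same libraries. Groups did not overlap for 80.9% of all genes tested.

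Paralogs with nearly the same name could differ widely. In 3 sets, 1 member rose and another fell on both scales. Rab9 stood 6.45 log2 units above Rab9b, from 6.22 to 6.69 over the animals, and Rab33b stood 3.24 above Rab33a, from 2.89 to 3.64. Rab33a, a Rab of vesicles in growing axons, had 3.37, 5.60, 4.00 and 3.35 FPKM in HA IP, against 22.6, 20.3, 16.1 and 18.6 FPKM in input, for a log2 ratio of -1.43 (SE 0.15, adjusted p = 5.36e-05). The third set was Rab8a and Rab8b, Rabs of exocytosis and of the cilium, which differed by 2.20, from 1.61 to 2.69 over the animals.

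Rab8a had 24.2, 27.0, 25.4 and 25.2 FPKM in HA IP, against 19.9, 20.7, 18.8 and 20 FPKM in input, and rose by 1.18 (SE 0.06, adjusted p = 7.85e-07), or 0.36 on the deposited scale. Rab8b had 2.80, 2.95, 4.16 and 2.77 FPKM in HA IP, against 12.2, 9.90, 9.51 and 14.5 FPKM in input, and changed by -1.02 (SE 0.18, adjusted p = 0.00111). Neither gene overlapped between the groups. In other sets no member rose while another fell on both scales. There Rab6a stood 1.85 above Rab6b, Rab5c 1.67 above Rab5a, Rab31 1.60 above Rab22a, Rab40c 1.47 above Rab40b and Rab4a 1.18 above Rab4b. Each of these differences had its sign in 4 of 4 animals, but members were ordered by fitted values from these same animals. The narrower difference of Rab1b over Rab1 also kept its sign, from 0.20 to 0.38 over the animals. Rab39 and Rab39b differed by 0.14, with a sign that varied between animals (-0.38 to 0.42). Counting of reads shared by paralogs or pseudogenes is not given in the sources used here, so a shared part could blur such differences. Of the genes with values per library, Rab4a, Rab6b, Rab8b, Rab15, Rab27b and Rab40b overlap another annotated gene, so their values may include its reads.

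**Figure D3:**
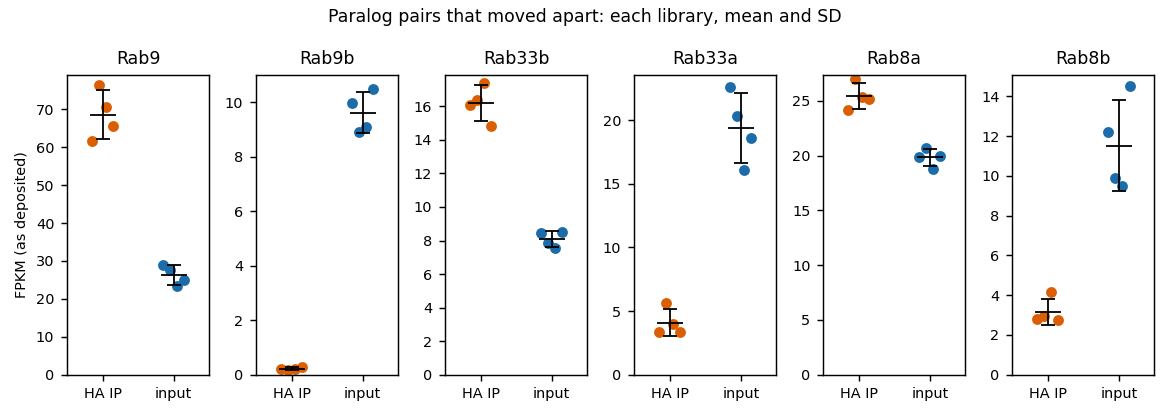
Deposited FPKM of the 3 paralog pairs that moved apart, with HA IP left of input, 1 point per library, and the mean with SD (n = 4 each). Rab9 averaged 68.6 in HA IP and 26.2 in input, whereas Rab9b averaged 0.220 in HA IP and 9.63 in input.

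**Figure D4:**
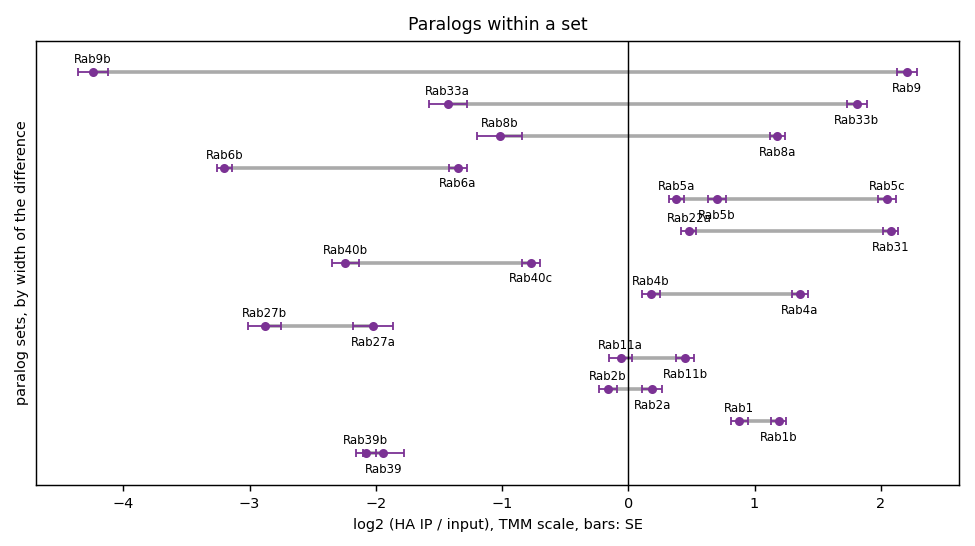
Log2 fold change of HA IP over input on the TMM scale with its SE for paralogs of each set, joined by a grey line and ordered by the width of the difference. Rab9 and Rab9b span 6.45 log2 units at the top, and Rab39 and Rab39b 0.14 at the bottom.

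The 250 bases before a transcription start of each of these 6 genes, as listed by RefSeq for GRCm38.p6, are shown because each pair shares its protein family and not its direction. Capitals mark the GC box GGGCGG and the CCAAT box CCAAT on either strand, and reading is 5′ to 3′ on the strand of the gene. The start listed for Rab33a lies inside the span of that gene, chrX:48513663-48530240, so its window is not upstream of the whole gene.
Rab9, chrX:166479868-166480117, minus strand: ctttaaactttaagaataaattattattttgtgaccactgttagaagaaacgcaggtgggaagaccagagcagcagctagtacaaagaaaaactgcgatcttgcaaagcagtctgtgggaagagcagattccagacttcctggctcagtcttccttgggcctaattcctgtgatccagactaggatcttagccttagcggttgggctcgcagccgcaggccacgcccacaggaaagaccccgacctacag
Rab9b, chrX:136868557-136868806, minus strand: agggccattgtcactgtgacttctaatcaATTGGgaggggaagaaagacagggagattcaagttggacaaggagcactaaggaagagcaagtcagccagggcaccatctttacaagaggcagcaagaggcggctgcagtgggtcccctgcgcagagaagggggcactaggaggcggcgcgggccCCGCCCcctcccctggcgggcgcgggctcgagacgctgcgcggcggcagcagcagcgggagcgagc
Rab33b, chr3:51483716-51483965, plus strand: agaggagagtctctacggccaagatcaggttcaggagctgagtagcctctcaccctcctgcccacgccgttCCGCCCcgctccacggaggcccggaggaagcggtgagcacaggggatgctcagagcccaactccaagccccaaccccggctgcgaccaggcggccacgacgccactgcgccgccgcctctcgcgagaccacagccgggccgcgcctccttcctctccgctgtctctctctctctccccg
Rab33a, chrX:48519035-48519284, plus strand: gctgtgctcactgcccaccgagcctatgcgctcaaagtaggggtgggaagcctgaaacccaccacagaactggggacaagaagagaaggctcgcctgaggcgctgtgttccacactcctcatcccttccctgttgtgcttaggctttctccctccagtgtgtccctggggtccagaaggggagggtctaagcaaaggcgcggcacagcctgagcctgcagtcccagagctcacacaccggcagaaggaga
Rab8a, chr8:72160950-72161199, plus strand: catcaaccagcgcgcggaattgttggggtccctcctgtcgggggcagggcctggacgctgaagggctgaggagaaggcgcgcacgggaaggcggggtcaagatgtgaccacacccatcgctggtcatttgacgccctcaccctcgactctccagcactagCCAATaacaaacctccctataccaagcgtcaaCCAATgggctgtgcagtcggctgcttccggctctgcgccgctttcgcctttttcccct
Rab8b, chr9:66919706-66919955, minus strand: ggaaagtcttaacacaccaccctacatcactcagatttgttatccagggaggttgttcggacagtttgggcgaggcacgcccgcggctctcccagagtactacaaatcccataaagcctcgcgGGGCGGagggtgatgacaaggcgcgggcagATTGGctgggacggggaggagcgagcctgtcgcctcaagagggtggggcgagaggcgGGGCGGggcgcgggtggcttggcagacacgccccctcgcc

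No GC box or CCAAT box was found in the window of Rab9, and the window of Rab9b held 1 of each. The window of Rab33b held 1 GC box and that of Rab33a neither motif. Rab8a had 2 CCAAT boxes, and Rab8b had 2 GC boxes and 1 CCAAT box. CG dinucleotides numbered 7 in Rab9, 16 in Rab9b, 23 in Rab33b, 7 in Rab33a, 18 in Rab8a and 20 in Rab8b. Over the 44 Rab genes with a promoter in the table, 65.9% held a GC box and 45.5% a CCAAT box, against 32.9% and 34.5% of 27025 promoters. The median number of CG dinucleotides was 17 in the Rab genes and 6 in all promoters. It was 18 in the 13 matched genes that were higher on both scales and also 18 in the 13 that were lower on both.

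Other motifs gave the following shares. The TATA box TATAAA was in 6.82% of the Rab windows and 13.0% of all, the E-box CACGTG in 9.09% and 6.05%, and the cyclic AMP element TGACGTCA in 4.55% and 1.62%. The palindrome of nuclear factor I was in none of the Rab windows and in 0.0407% of all. All were searched on both strands, and that palindrome can overlap a CCAAT box. A match is a description of letters in the window.

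The genes that act on Rabs were followed through 118 entries, all matched to a row. Of these, 45 rose, 51 fell, 20 did not pass and 2 were not tested, where 42.8% of all genes tested were higher and 42.6% lower. On the deposited scale 18 were higher and 82 lower, where the shares of all genes were 24.3% and 62.8%. The counts of each list below stand beside these same shares. Their median was -0.08 with TMM scaling and -0.78 without it, against 0.00 and -0.75 for all genes tested. The 51 falls include Dennd1c, Dennd2c, Sytl1, Sytl5 and Mlph, which passed the filter through input alone, so their falls are descriptions. The 82 on the deposited scale also include Tbc1d10c, which passed in the same way.

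Of 8 genes of prenylation and cytosolic recycling, 4 rose, 3 fell and 1 did not pass. On the deposited scale 3 were higher and 4 lower. The list median was 0.50 with TMM scaling and -0.32 on the deposited scale. Rabac1, which helps Rabs leave their GDI, averaged 164 FPKM in HA IP, against 95.4 FPKM in input, and rose by 1.60 (SE 0.06, adjusted p = 3.24e-07). Rabggtb, the beta subunit of Rab geranylgeranyl transferase, rose by 1.46 (SE 0.11, adjusted p = 1.04e-05). The length fitted to the Rabggtb values, 11193 bases, exceeds its RefSeq span of 5678 bases, and the gene overlaps Snord45b and Snord45c. The escort proteins fell: Chm changed by -1.39 (SE 0.09, adjusted p = 3.21e-06) and Chml by -0.96 (SE 0.13, adjusted p = 3.06e-04), or -0.60 with a pseudocount of 1 FPKM.

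Of 35 GEF genes, 15 rose, 14 fell, 5 did not pass and 1 was not tested. The 14 include Dennd1c and Dennd2c, which passed the filter through input alone. The list median was 0.14 with TMM scaling and -0.68 on the deposited scale, where 6 were higher and 22 lower. Of all genes tested 42.8% were higher and 42.6% lower with TMM scaling, and 24.3% and 62.8% on the deposited scale. Rin2, an exchange factor of Rab5, averaged 28.0 FPKM in HA IP, against 6.87 FPKM in input, and rose by 2.78 (SE 0.14, adjusted p = 9.17e-07). Als2cl, a relative of the Rab5 factor alsin, rose by 2.54 (SE 0.13, adjusted p = 1.28e-06), or 1.41 with a pseudocount of 1 FPKM. The largest falls were Rin1, another Rab5 factor, known from forebrain neurons, at -3.06 (SE 0.17, adjusted p = 1.59e-06), and Madd, which loads Rab3 and Rab27, at -2.43 (SE 0.12, adjusted p = 9.02e-07). Rin2 and Rin1, which act on the same Rab, had opposite signs on both scales.

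Of 34 GAP genes, 8 rose, 17 fell and 9 did not pass. The list median was -0.26 with TMM scaling and -0.99 on the deposited scale, where 2 were higher and 28 lower. Shares of all genes tested were 42.8% higher and 42.6% lower with TMM scaling, and 24.3% and 62.8% on the deposited scale. The rises were led by Tbc1d10a, a GAP of Rab27 and Rab35, at 2.33 (SE 0.07, adjusted p = 9.03e-08), with 42.4 FPKM in HA IP, against 15 FPKM in input, and by Tbc1d17 at 1.34 (SE 0.09). The falls were led by Tbc1d30 at -3.23 (SE 0.08, adjusted p = 3.77e-08) and Tbc1d9 at -2.54 (SE 0.16).

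Of 38 effector genes, 18 rose, 15 fell, 4 did not pass and 1 was not tested. The 15 include Sytl1, Sytl5 and Mlph, which passed the filter through input alone. The list median was 0.12 with TMM scaling and -0.65 on the deposited scale, where 7 were higher and 26 lower. For all genes tested the shares were 42.8% higher and 42.6% lower with TMM scaling, and 24.3% and 62.8% on the deposited scale. Micall2, an effector of Rab13 at cell junctions, averaged 6.40 FPKM in HA IP, against 0.613 FPKM in input, and rose by 3.85 (SE 0.13, adjusted p = 1.48e-07), or 2.54 with a pseudocount of 1 FPKM. Mical1, an actin-oxidising relative, rose by 3.81 (SE 0.08, adjusted p = 2.02e-08). Among effectors with a mean of at least 1 FPKM, the largest falls were those of Exph5 and Sytl2, which bind Rab27: Exph5 at -3.38 (SE 0.18, adjusted p = 1.38e-06) and Sytl2 at -2.67 (SE 0.17, adjusted p = 3.49e-06). With a pseudocount of 1 FPKM these were -1.77 and -1.21. Not all Rab27 effectors fell: Sytl4 was called higher at 0.77, and Unc13d had -0.17 and did not pass. Both had low levels. Sytl4 averaged 0.098 FPKM in HA IP, against 0.0441 FPKM in input, and Unc13d 0.125 FPKM, against 0.268 FPKM. Myrip, at 8.29 FPKM in HA IP, against 23.5 FPKM in input, changed by -0.66 (SE 0.17, adjusted p = 0.00756). Sytl5 had 0 to 1 fragments in HA IP, against 230 to 443 in input. Sytl1, Sytl4, Sytl5, Mlph, Myrip and Unc13d were picked after their values were seen.

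Of the 3 genes that phosphorylate or dephosphorylate Rabs, 2 fell and 1, Lrrk1, did not pass, and the same 2 were lower on the deposited scale. Ppm1h, the phosphatase that acts against Lrrk2 on Rab8a and Rab10, averaged 1.58 FPKM in HA IP, against 20.2 FPKM in input, and changed by -2.74 (SE 0.13, adjusted p = 6.33e-07). Lrrk2 changed by -1.09 (SE 0.11, adjusted p = 3.85e-05). Among regulators named for the largest changes, Rabac1, Rabggtb, Chm, Chml, Rin2, Tbc1d9, Tbc1d17, Tbc1d30, Mical1 and Ppm1h overlap another annotated gene. Their values may include its reads.

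**Figure D5:**
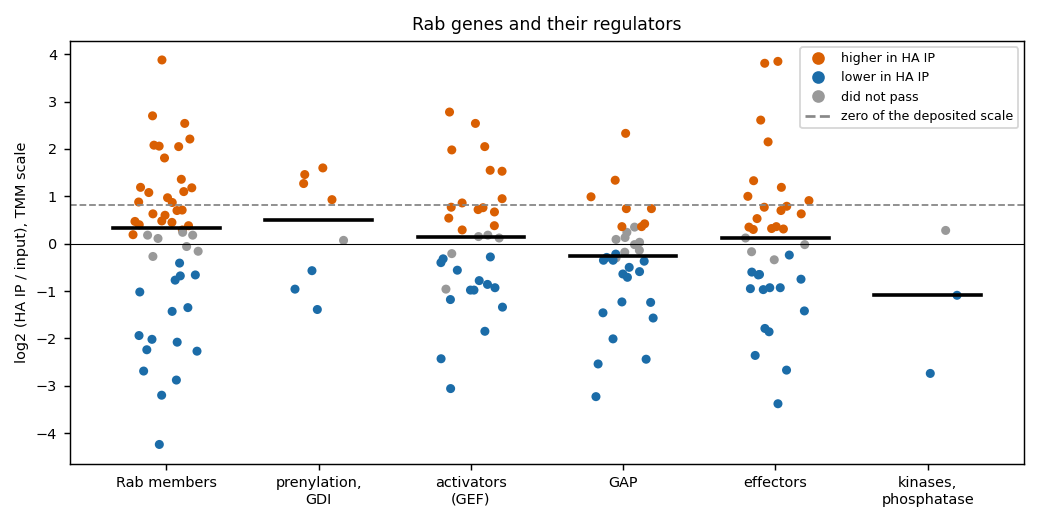
Log2 fold change on the TMM scale of the Rab genes and of the 5 lists of genes that act on them, 1 point per gene tested, coloured by call, with the list median as a bar. The dashed line at 0.83 is where the deposited scale has its zero; the GAP median of -0.26 is the lowest of the 4 lists with at least 8 genes.

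Members with few fragments were Rab17, Rab19, Rab25, Rab38 and Rab44, which did not pass the filter. Rab25, an epithelial relative of Rab11, had 0 fragments in all 4 HA IP libraries, which allows up to 3 fragments or 0.0623 to 0.0840 FPKM in a library, and 0, 1, 3 and 2 fragments in input. Rab17, also epithelial, had 0, 1, 0 and 0 fragments in HA IP, against 1, 7, 5 and 1 in input. Rab38, a melanosome Rab, had 1, 1, 1 and 0 fragments in HA IP, against 9, 1, 2 and 9 in input. Rab19 had 0 to 4 fragments in HA IP, against 1 to 4 in input, and Rab44 had 0 to 2 and 1 to 7. The limit given for Rab25 covers counting error alone, and none of these 5 genes was tested. Rab39, which acts in autophagy, passed the filter only through input, with 6 to 8 fragments in HA IP, against 59 to 132 in input, so its log2 fold change of -1.94 (SE 0.16) is a description. Of the 50 tested, 41 had at least 100 fragments in every library.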

How the data were processed

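Reads were handled with bcl2fastq 2.17, STAR and HTSeq on mm10, per the submitters' processing notes. Their settings, strand included, are not given in the sources used. Libraries were stranded and selected for mRNA, per the labels' protocols. The deposited values were read as FPKM, which neither labels nor headers name: with a whole length per gene and total per library, each of 142235 nonzero values gave whole fragments to within 0.001, a tolerance that the lengths were fitted to.

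Genes were tested where 4 libraries reached 0.246 CPM of recovered fragments (10 in a median library) and all together held 15. FPKM were divided by unweighted TMM factors (trims 0.3 and 0.05, written for this purpose). Limma 3.58.1 in R 4.3.3 was fitted on log2(FPKM + 0.1) with an intensity trend and animal as a block, two-sided, and tested on simulated data. In those data few genes changed, as many up as down, so the scaling of the real libraries was not tested by them. Lists got no set test. Same-animal libraries deviated together (correlations 0.219 to 0.399; other pairs at most 0.114), and 1 homogenate gave both. The p-values measure the spread of the HA IP to input ratio over these animals, moderated by the trend over all genes. Level differences between animals are taken out by the block.

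Members, roles and lists were chosen with earlier results of these data known. Values per library were given for the 8 largest rises and falls with a mean of at least 1 FPKM and for paralog sets split on both scales, with 2 rises and 2 falls per regulator list. A planned protein comparison was not run. RefSeq coordinates matched 54 of 55 genes, 23 of which overlap another gene; without a stated strand setting, reads of overlapping genes may be shared.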

Additional observations from a re-analysis of the deposited data

Results flagged for a closer look

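Over the 110 groups of 4 libraries formed by 55 genes, 10 held a library whose gap to its neighbour exceeded Dixon's critical share of the range, which chance gives in about 1 of 20 groups. In HA IP of animal 581, Rab5c stood at 231 FPKM (others 189 to 193), Rab34 at 15.7 FPKM (others 9.73 to 10.7) and Rab8b at 4.16 FPKM (others 2.77 to 2.95). In HA IP of animal 595, Rab5a stood at 44.5 FPKM (others 37.2 to 38.0), Rab27b at 0.295 FPKM (others 0.196 to 0.206) and Rab4b at 23.0 FPKM (others 28.3 to 29.1), and Rab38 at 0.0 FPKM (others 0.0278 to 0.0287, 1 fragment each). Rab17 stood at 0.00676 FPKM, 1 fragment, in HA IP of animal 580, with the others at 0. In input, Rab35 stood at 42.1 FPKM in animal 580 (others 40.4 to 40.5) and Rab36 at 15 FPKM in animal 581 (others 9.91 to 10.6).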

How the results depend on the processing

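Scaling decided most of the dependence. On the deposited scale the Rab genes split 14 higher and 31 lower with a median of -0.48, all regulators 18 and 82, effectors 7 and 26, GAPs 2 and 28 and GEFs 6 and 22. The sign turned there for Rab2a (-0.63), Rab4b (-0.65), Rab5a (-0.44), Rab5b (-0.13), Rab11b (-0.37), Rab12 (-0.43), Rab14 (-0.22), Rab18 (-0.11), Rab22a (-0.35), Rab24 (-0.54), Rab30 (-0.18), Rab32 (-0.55), Rab35 (-0.36), Rab37 (-0.53) and Rab43 (-0.52), as the shift of 0.83 sets by construction. The median of the Rab genes was 0.26 with median-of-ratios factors and 0.21 with no filter. It was 0.16 among genes with a mean of at least 1 FPKM, where Rab2a had -0.03 and Rab4b -0.05. TMM factors were computed anew from the genes kept by each filter, which moves the zero of the scale. Any other part in these changes was not tested. Rab2a also lost its call with median-of-ratios factors (adjusted p = 0.202) and with no filter (adjusted p = 0.0627), and Rab24 among genes of at least 1 FPKM (0.06, adjusted p = 0.444). That last setting added calls for Rab11a (-0.28), Rab2b (-0.38, adjusted p = 0.00159) and Rab42 (-0.48, adjusted p = 0.0267). Median-of-ratios factors added Rab2b (-0.24) and a pseudocount of 1 FPKM added Rab43 (0.14).

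The animal pairs the libraries, and with no replicate block 27 Rab genes were higher and 16 lower, and no call on a Rab gene changed. Leaving out 1 animal, with 3 libraries in the filter, moved Rab11a between -0.13 and 0.02 and Rab37 between -0.07 and 0.24. A pseudocount of 1 FPKM gave Rab20 0.83 and Rab39 -0.56. Precision is limited by depth for genes with fewer than 100 fragments in a library.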
